A study of Mus musculus with 7 samples.

Results

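The genes examined here encode the cell surface receptors for interferons and 3 transcription factors that act downstream of them. They were chosen by name and matched to the Ensembl identifiers of the count table, which gave 9 genes of 55414 identifiers: the receptor subunits Ifnar1, Ifnar2, Ifngr1, Ifngr2, Ifnlr1 and Il10rb, and the factors Stat2, Irf1 and Irf9. They were measured by bulk RNA-seq of purified Paneth cells (PCs), the secretory cells of the small intestinal crypt base, from C57BL/6J mice that had received phosphate-buffered saline (PBS, 3 libraries) or tumor necrosis factor (TNF, 4 libraries), a pro-inflammatory cytokine. Cells were taken 15 h after the injection, and every library came from its own mouse. The sources used here do not give dose, route, age or sex. The question was how TNF changed the PC transcriptome.

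Interferons signal through paired receptor chains. Type I interferons bind IFNAR1 with IFNAR2, interferon-gamma binds IFNGR1 with IFNGR2, and interferon-lambda, the type that acts mainly on epithelia such as that of the gut, binds IFNLR1 with IL10RB, a chain also used by the receptors for IL-10 and IL-22. The chains carry the kinases JAK1, JAK2 or TYK2, which phosphorylate STAT proteins. STAT2 and IRF9 act within the complex ISGF3, which binds the interferon-stimulated response element (ISRE), whereas STAT dimers bind the gamma-activated sequence (GAS). IRF1 is a transcription factor induced by interferon-gamma and by NF-kB, the main factor downstream of TNF receptors, and IRF2 competes with it for the same sites.

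Of 5 genes that rose after TNF and hold a promoter match to a sequence that these factors or NF-kB recognize, the promoters of 3 are shown, as examples that cover each kind of match. All promoter sequences come from RefSeq (GRCm38.p6, plus strand), run from 250 bases before the gene start to 50 bases after it, and are written with the matches in capitals. The Irf1 promoter shown (chr11:53769764-53770063), which is not the only one of this gene, holds a GAS and a kappaB consensus. The Ifngr2 promoter (chr16:91546809-91547108) holds a kappaB consensus, and the Stat2 promoter (chr10:128270248-128270547) an ISRE.
Irf1: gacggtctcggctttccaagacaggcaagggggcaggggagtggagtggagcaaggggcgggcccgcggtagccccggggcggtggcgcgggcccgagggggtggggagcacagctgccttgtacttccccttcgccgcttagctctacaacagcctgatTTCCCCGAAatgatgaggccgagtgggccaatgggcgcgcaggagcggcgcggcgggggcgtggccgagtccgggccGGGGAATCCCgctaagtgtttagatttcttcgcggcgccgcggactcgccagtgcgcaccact
Ifngr2: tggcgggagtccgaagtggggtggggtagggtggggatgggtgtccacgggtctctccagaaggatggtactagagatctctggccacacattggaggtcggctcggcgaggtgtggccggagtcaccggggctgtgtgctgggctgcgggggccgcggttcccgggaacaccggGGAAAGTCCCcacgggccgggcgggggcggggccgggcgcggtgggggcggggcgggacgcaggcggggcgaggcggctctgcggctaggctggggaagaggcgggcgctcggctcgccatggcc
Stat2: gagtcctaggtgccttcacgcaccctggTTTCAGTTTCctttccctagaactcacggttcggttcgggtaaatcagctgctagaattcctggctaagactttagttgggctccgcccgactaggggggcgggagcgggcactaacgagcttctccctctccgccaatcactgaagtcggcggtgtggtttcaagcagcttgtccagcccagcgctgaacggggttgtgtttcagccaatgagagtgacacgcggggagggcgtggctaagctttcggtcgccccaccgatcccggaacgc

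The search, on both strands, took as an ISRE the letters GAAA, any 2 bases and GAAA again, as a GAS TTCNNNGAA, and for NF-kB the kappaB consensus. No match overlapped another. In Irf1, the GAS TTCCCCGAA started 90 bases and the kappaB match GGGGAATCCC 13 bases before the gene start. In Ifngr2, the kappaB match GGAAAGTCCC started 75 bases before the gene start, and in Stat2, the ISRE TTTCAGTTTC started 222 bases before it. Promoters were found for 8 of the 9 genes (10 promoters), which are the 8 genes that rose. None was found for Il10rb, so the matches cannot be compared with a gene that did not rise. Another Irf1 promoter (chr11:53770223-53770522) held no match. Beyond these 3 genes a GAS was found in Ifnar1 and in Ifnar2, while Ifngr1, Ifnlr1 and Irf9 held no match in these windows. Of all 32851 promoters in the table, 3.44% held the ISRE, 8.3% the GAS and 4.51% the kappaB consensus. A match describes the letters of the sequence and was not tested for binding.

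All 9 genes passed the filter on low counts, and 8 of them rose after TNF (edgeR, adjusted p under 0.05), while none fell. Among all 14329 genes tested, 59.6% were called, as 29.5% rose and 30.1% fell. For the same 8 genes every TNF library lay above every PBS library, which held for 29.9% of all tested genes (the reverse held for 30.9%). With a change of at least 2-fold also required, 6 of the 9 genes rose and none fell, beside 14.4% and 17.2% of all tested genes. The median log2 fold change of the 9 genes was 1.25, beside 0.0017 over all tested genes. The chains of the interferon-gamma receptor rose most, and Il10rb was the one gene that was not called. Values are counts per 1000000 counts (CPM), with library sizes corrected for composition by TMM, a trimmed mean of log ratios between libraries. Errors of CPM are SDs and errors of log2 fold changes are SEs. The libraries held 15511455 to 19193721 counts. In bulk samples, fewer cells of a type and less RNA per cell cannot be told apart.

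**Figure D1:**
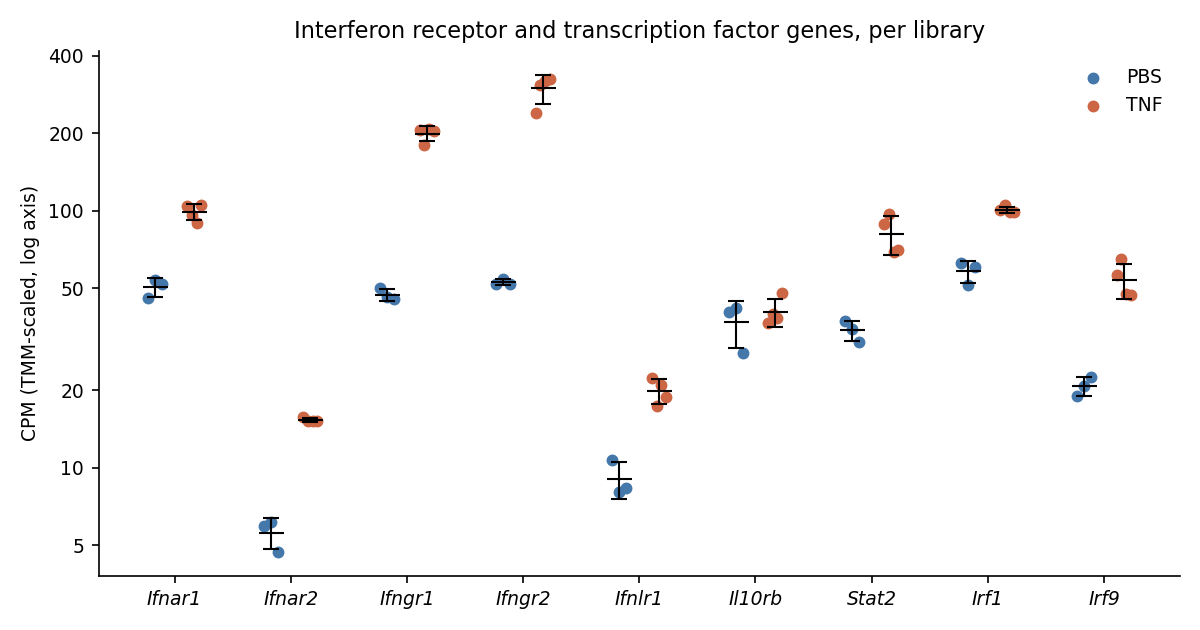
CPM (log axis) of the 9 genes in each PBS (blue, n = 3) and TNF (orange, n = 4) library, with bars for the mean and SD. The TNF points lie above all PBS points for every gene except Il10rb, and the gap is widest for Ifngr1 and Ifngr2.

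Because the labels call the samples purified PCs, markers were examined first. The 8 PC markers (Lyz1, Mmp7, Ang4, Defa24, Itln1, Clps, Kit and Cd24a) summed to 167000 to 267700 CPM after PBS and 160200 to 286200 CPM after TNF. Most of this sum came from Lyz1, Defa24 and Itln1 (means of 96510, 71460 and 29880 CPM after PBS), so it says little on the others. Mmp7 rose, while Clps, Kit and Cd24a fell (edgeR), to 20.8%, 31.3% and 72.5% of their PBS means. The 15 leukocyte markers, which matter here because leukocytes carry interferon receptors, summed to 24.8 to 32.1 CPM after PBS and 19.5 to 29.8 CPM after TNF, with 8 of 15 at 0 over the PBS and 2 of 15 (among them the T cell gene Cd3e) at 0 in all libraries. Ptprc, which encodes CD45, had a mean of 16.4 CPM after PBS and 8.50 CPM after TNF. S100a9, a calcium-binding protein gene of neutrophils, had 0 counts after PBS and 3.21 to 7.85 CPM after TNF. The 8 stromal and endothelial markers summed to at most 0.448 CPM in any library. Among other epithelial cells, the summed markers were lower after TNF for enterocytes (958 to 1178 against 353 to 417 CPM), tuft cells (1507 to 2469 against 286 to 746 CPM) and stem cells (3467 to 4785 against 1971 to 2717 CPM), with goblet cell markers at 11180 to 20550 against 9167 to 10490 CPM and enteroendocrine markers at 36.3 to 98.8 against 45.2 to 74.3 CPM. The overlapping enteroendocrine sums hold opposite changes, since Tac1, which encodes substance P, rose from 1.71 ± 1.25 to 41.1 ± 11.3 CPM, while Chgb, Gip and Sst fell and the other 4 of 8 markers were not called (edgeR). Of all tested genes, 30.1% fell and 29.5% rose. Of the tested markers, 6 of 8 fell and 1 rose for enterocytes, and 7 of 7 fell for tuft cells. For stem cells 5 of 6 fell, and for goblet cells 4 of 7. The part of these shifts in the results below was not tested.

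The interferon-gamma receptor showed the steepest rise. Ifngr1 (ENSMUSG00000020009; GRCm39 chromosome 10, 19467697 to 19485977), which encodes the ligand-binding chain, had 49.9, 46.3 and 45.2 CPM after PBS, and 205, 179.9, 208 and 205 CPM after TNF. No TNF library came near the PBS libraries, and TNF replicate 2 was the lowest of its group. The log2 fold change was 2.08 ± 0.11 (edgeR adjusted p = 2.61e-09), about 4.23-fold. Ifngr2 (ENSMUSG00000022965; chromosome 16, 91343906 to 91362512), the signal-transducing chain that carries JAK2, had 52.0, 54.4 and 51.9 CPM after PBS, and 240.3, 309, 319 and 326 CPM after TNF. The groups stood far apart again, with TNF replicate 1 below the other TNF libraries. Its log2 fold change was 2.50 ± 0.13 (edgeR adjusted p = 2.85e-09), or 5.66-fold, and 3.71% of all tested genes had a higher one.

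Both chains of the type I interferon receptor rose as well, from unequal levels. Ifnar1 (ENSMUSG00000022967; chromosome 16, 91281942 to 91305789), the lower-affinity chain, had 45.7, 53.8 and 52.0 CPM after PBS, and 105, 96.4, 89.8 and 105 CPM after TNF. The PBS and TNF ranges were separate, and the log2 fold change was 0.97 ± 0.11 (edgeR adjusted p = 3.35e-06). Ifnar2 (ENSMUSG00000022971; chromosome 16, 91169618 to 91202723), the high-affinity chain, was the lowest of the 9 genes, with 5.93, 6.16 and 4.72 CPM after PBS and 15.8, 15.2, 15.3 and 15.2 CPM after TNF. Its TNF libraries were nearly equal, and all lay well above the PBS libraries (log2 fold change 1.45 ± 0.17, edgeR adjusted p = 6.41e-06).

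For the interferon-lambda receptor, the chains moved differently. Ifnlr1 (ENSMUSG00000062157; chromosome 4, 135413514 to 135435492), which encodes the chain specific to interferon-lambda, had 10.8, 8.04 and 8.38 CPM after PBS, and 22.3, 17.4, 21.1 and 18.9 CPM after TNF. It was higher in 4 of 4 TNF libraries than in any PBS library, with a log2 fold change of 1.14 ± 0.17 (edgeR adjusted p = 4.22e-05). Il10rb (ENSMUSG00000022969; chromosome 16, 91203012 to 91224600), the shared chain, had 40.5, 41.9 and 28.1 CPM after PBS, and 36.5, 39.6, 38.1 and 47.8 CPM after TNF. The groups overlapped, and PBS replicate 3 was the lowest of all 7 libraries. The log2 fold change of Il10rb was 0.14 ± 0.15 (edgeR adjusted p = 0.446, 95% interval -0.18 to 0.46). It was -0.02 with scaling by total counts only and -0.03 without PBS replicate 3, so no direction can be given.

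Among the transcription factors, the ISGF3 subunits Stat2 and Irf9 rose by similar amounts and Irf1 by less. Stat2 (ENSMUSG00000040033; chromosome 10, 128106352 to 128128735) had 37.2, 34.7 and 31.0 CPM after PBS, and 88.8, 97.1, 69.2 and 70.4 CPM after TNF. Irf9 (ENSMUSG00000002325; chromosome 14, 55841028 to 55847812), the subunit of ISGF3 that contacts the ISRE, had 19.04, 20.8 and 22.5 CPM after PBS, and 56.0, 64.9, 47.4 and 46.9 CPM after TNF. In both genes TNF replicates 1 and 2 were higher than TNF replicates 3 and 4, and every TNF library exceeded every PBS library. The log2 fold changes were 1.25 ± 0.14 for Stat2 (edgeR adjusted p = 3.52e-06) and 1.37 ± 0.14 for Irf9 (edgeR adjusted p = 1.49e-06). Irf1 (ENSMUSG00000018899; chromosome 11, 53660812 to 53669200) had 62.4, 51.6 and 60.7 CPM after PBS, and 101, 104.8, 99.2 and 98.8 CPM after TNF. Its groups were separate and its TNF libraries close together (coefficient of variation 2.703%). The log2 fold change of Irf1 was 0.79 ± 0.10 (edgeR adjusted p = 1.39e-05), the smallest among the 8 genes called. The TNF libraries of Stat2 and Irf9 had coefficients of variation of 16.99% and 15.8%.

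The way reads are assigned can touch some of these genes, and strand use in counting was not given. In GENCODE M39, 747 exon bases of Ifnar2 and 27.9% of those of Il10rb are also exons of Gm21970, a same-strand gene that spans both. Gm21970 had 0 counts in all libraries, and whether reads in the shared bases were counted for Ifnar2 or Il10rb is not known. On the opposite strand of Irf1, Gm17334 covers 31.4% of its exon bases (1 to 5 counts after PBS and 1 to 7 after TNF) and Gm12216 13.2% (15 to 46 and 16 to 33 counts). Irf9 shares 4.9% of its exon bases with its same-strand neighbor Rnf31, which had 539 to 656 counts after PBS and 670 to 904 after TNF. The other 5 genes share no exon base with another annotated gene.

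Levels of different genes were compared per kb of exon. After PBS, the order of mean CPM per kb was Ifngr1 (16.6 ± 0.876, SD, n = 3), Irf1 (12.4 ± 1.24), Ifngr2 (11.7 ± 0.312), Ifnar1 (6.22 ± 0.526), Il10rb (6.00 ± 1.24), Stat2 (5.44 ± 0.494), Irf9 (3.58 ± 0.297), Ifnlr1 (2.12 ± 0.347) and Ifnar2 (1.498 ± 0.207). Of neighbors in this order, the ranges of Irf1 and Ifngr2, of Ifnar1 and Il10rb, and of Il10rb and Stat2 overlapped. After TNF, Ifngr1 (70.1 ± 4.63 CPM per kb, SD, n = 4) and Ifngr2 (66.1 ± 8.75) led, overlapping each other, ahead of Irf1 (21.6 ± 0.583). Stat2 (12.9 ± 2.19), Ifnar1 (12.2 ± 0.900) and Irf9 (9.27 ± 1.47) followed, and Stat2 overlapped with Ifnar1 and Ifnar1 with Irf9. Il10rb (6.60 ± 0.822) came next, and Ifnlr1 (4.67 ± 0.518) and Ifnar2 (4.10 ± 0.0762) stayed lowest, with overlapping ranges. Exon lengths were those of all annotated transcripts merged, so the order depends on which transcripts PCs use. For Ifnar2 and Il10rb it also depends on whether reads in the bases shared with Gm21970 were counted.

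**Figure D2:**
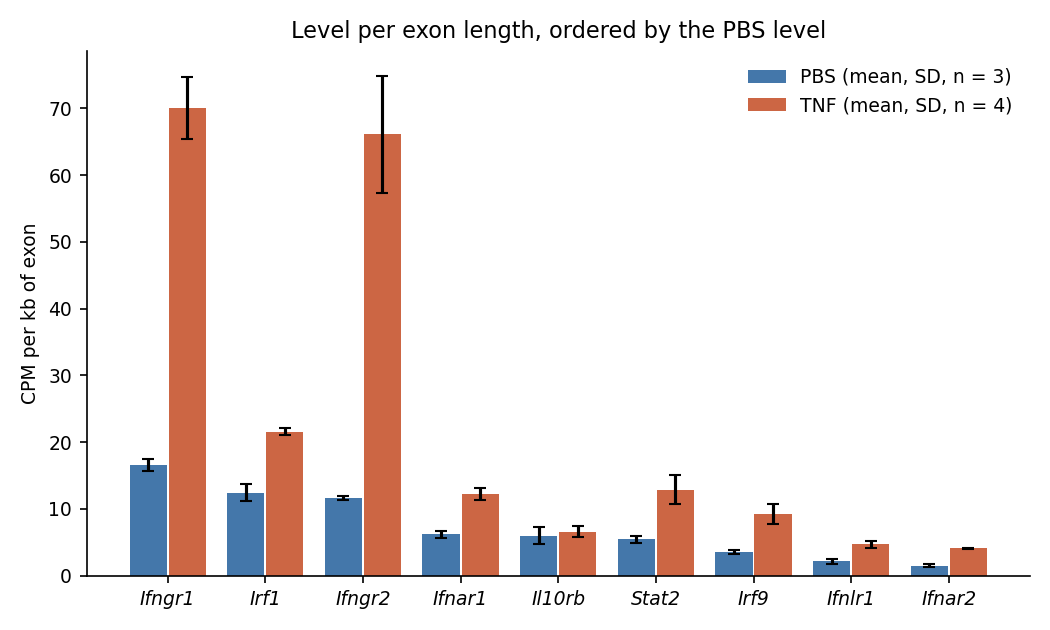
CPM per kb of exon for each gene after PBS (blue) and TNF (orange), as mean and SD, ordered by the PBS level. Ifngr1 and Ifngr2 reach 70.1 and 66.1 CPM per kb after TNF, while all other genes stay at or under 21.6.

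To compare partner genes within a library, where scaling cancels, ratios of counts were tested by an exact permutation test (two-sided, 35 splits, smallest possible p = 0.0286), with Benjamini-Hochberg adjustment over 5 ratios. The Ifnar1 to Ifnar2 ratio was 7.66, 8.70 and 11.0 after PBS and 6.62, 6.33, 5.88 and 6.91 after TNF, so that every TNF library was lower. The mean log2 ratio differed by -0.488 (exact permutation p = 0.0286, adjusted p = 0.0476). The Ifnlr1 to Il10rb ratio was 0.266, 0.192 and 0.299 after PBS and 0.612, 0.440 (TNF replicate 2), 0.554 and 0.396 after TNF, again without overlap. Its mean log2 ratio rose by 0.988 (exact permutation p = 0.0286, adjusted p = 0.0476).

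The Ifngr1 to Ifngr2 ratio was 0.960, 0.850 and 0.870 after PBS and 0.854, 0.583, 0.653 and 0.628 after TNF. TNF replicate 1 lay within the PBS range, and the difference of -0.409 in mean log2 ratio did not pass (exact permutation p = 0.0857, adjusted p = 0.107). For Irf9 to Stat2, the ratio was 0.513, 0.599 and 0.726 after PBS and 0.631, 0.668, 0.685 and 0.666 after TNF. The TNF libraries lay inside the PBS range, and the difference was 0.128 in mean log2 ratio (exact permutation p = 0.429). The ratio of Irf1 to its competitor Irf2 was 1.36, 1.15 and 1.65 after PBS and 6.17, 8.87, 7.71 and 9.35 after TNF. This was the largest shift of the 5, a rise of 2.53 in mean log2 ratio (exact permutation p = 0.0286, adjusted p = 0.0476).

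**Figure D3:**
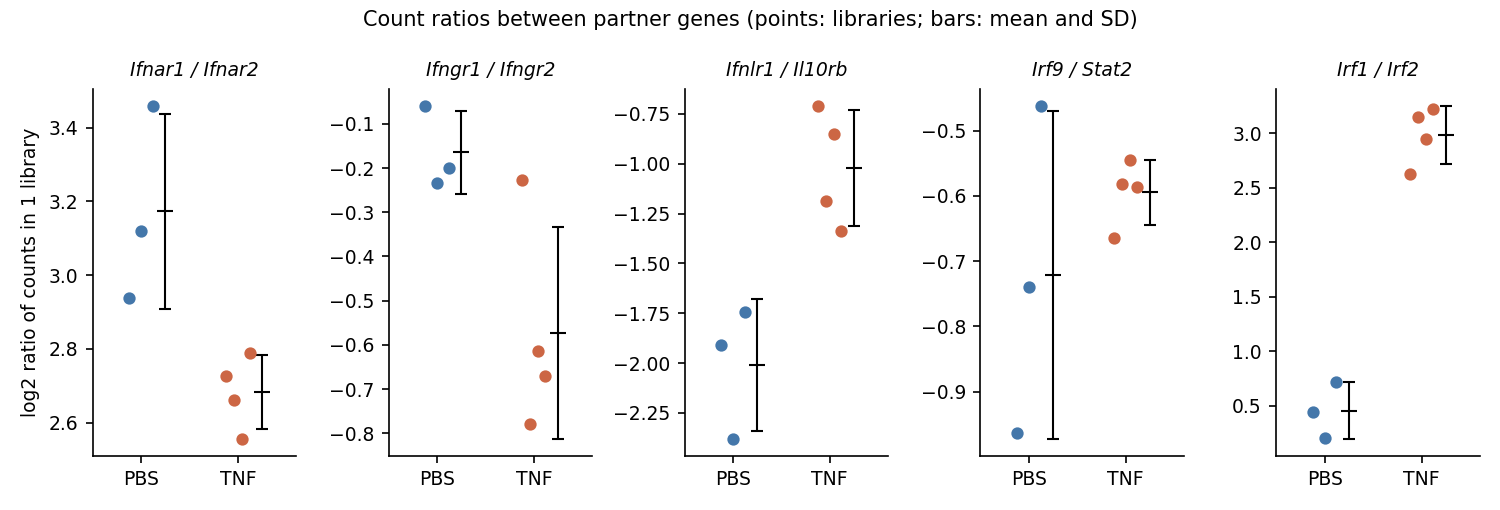
Log2 ratio of counts for 5 gene pairs in each PBS (blue, n = 3) and TNF (orange, n = 4) library, with bars for mean and SD; each panel has its own axis. The groups do not overlap for Ifnar1 to Ifnar2, Ifnlr1 to Il10rb and Irf1 to Irf2, and they overlap for the other two.

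On mouse chromosome 16, Ifnar2, Il10rb, Ifnar1 and Ifngr2 lie side by side on the plus strand within 192.9 kb, a cluster of related receptor genes. They did not move alike, with log2 fold changes of 1.45, 0.14, 0.97 and 2.50 in this order. Il10rb, the gene without a call, thus lies between genes that rose. None of the 11 other genes annotated in this span was tested, as their counts were too low or they were not in the count table. Past Ifngr2, the protein-coding neighbor Tmem50b rose (log2 fold change 2.04 ± 0.18, edgeR adjusted p = 7.55e-07), Dnajc28 had a log2 fold change of -1.92 ± 0.34 (adjusted p = 0.000219, a fall), and Gart had a log2 fold change of -0.17 ± 0.10 (adjusted p = 0.167). Before Ifnar2, Epcip rose (1.78 ± 0.53, adjusted p = 0.00956), whereas Olig1 and Olig2 were not tested, with 2 counts and 0 counts in all.

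**Figure D4:**
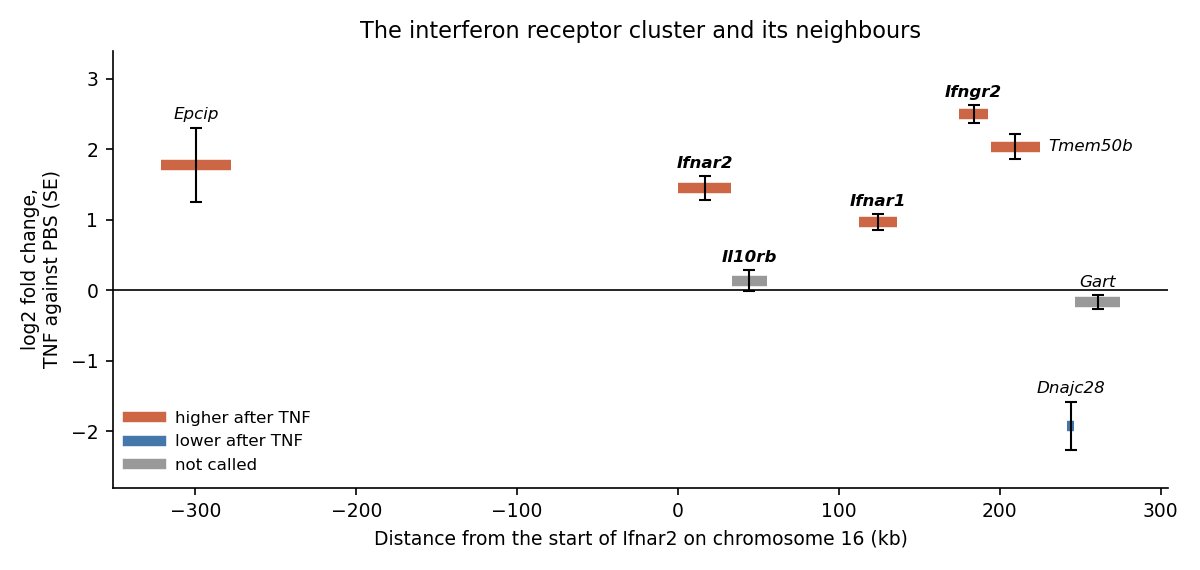
Log2 fold change (TNF against PBS, bars show SE) of the tested genes in and around the receptor cluster, drawn from each gene's start to its end in kb from the start of Ifnar2. The cluster genes (bold) range from 0.14 for Il10rb to 2.50 for Ifngr2, and the neighbors range from -1.92 to 2.04.

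Hardly any transcripts of the ligands were found. Of 13 ligand genes examined (Ifnb1, Ifna1, Ifna2, Ifna4, Ifna5, Ifna9, Ifnk, Ifne, Ifng, Ifnl2, Ifnl3, Il10 and Il22), 11 had 0 counts in all 7 libraries, which allows up to 3 counts of 123464461, or 0.0243 CPM. Ifna5 had 1 count in TNF replicate 4, and Il10 had 1 count in PBS replicate 1 and 5 in TNF replicate 4. The alpha-interferon genes are near-identical copies, so reads shared between them may have gone uncounted. Of the partner chains of IL10RB, Il22ra1 of the IL-22 receptor rose from 70.3 ± 9.50 (SD, n = 3) to 105 ± 15.5 CPM (SD, n = 4; log2 fold change 0.58 ± 0.13, edgeR adjusted p = 0.00163), and Il10ra of the IL-10 receptor had 0 counts throughout.

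The receptor kinases moved in both directions. Jak2, which pairs with IFNGR2, had 94.0, 72.1 and 59.7 CPM after PBS and 173, 181, 179.6 and 217 CPM after TNF (log2 fold change 1.32 ± 0.15, edgeR adjusted p = 4.51e-06). Jak1, used by all 3 receptor types, rose by 0.44 ± 0.10 (adjusted p = 0.00204). Tyk2, the kinase of IFNAR1 and IL10RB, had 48.1, 48.8 and 46.6 CPM after PBS and 23.7, 26.5, 21.0 and 19.8 CPM after TNF. It was thus lower in every TNF library and fell by 1.07 ± 0.12 on the log2 scale (edgeR adjusted p = 4.47e-06).

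Of 5 other STAT genes tested, 2 rose and none fell, beside 29.5% and 30.1% of all tested genes. Stat3, the main STAT of gp130 and IL-22 signaling, had 103.5 to 160 CPM after PBS and 341 to 377 CPM after TNF (log2 fold change 1.52 ± 0.14, edgeR adjusted p = 7.87e-07). Stat5a was called higher (0.52 ± 0.17, adjusted p = 0.0162), a call lost when libraries were scaled by total counts (0.34, adjusted p = 0.232), or without PBS replicate 1 (0.46) or 2 (0.44) or TNF replicate 3 (0.47). Stat5b (-0.26 ± 0.11, adjusted p = 0.0588) and Stat6 (-0.15 ± 0.09, adjusted p = 0.168) did not pass, though Stat5b was called lower with total-count scaling (-0.42, adjusted p = 0.0306) and with a filter of 1 CPM in 3 libraries (-0.27, adjusted p = 0.0478). Stat4 was below the filter.

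The other interferon regulatory factors split. Irf2, the competitor of IRF1, had 45.7, 44.7 and 36.8 CPM after PBS and 16.3, 11.8, 12.9 and 10.5 CPM after TNF, a clear separation. It fell by 1.72 ± 0.15 on the log2 scale (edgeR adjusted p = 4.76e-07). Irf3, a factor activated by nucleic acid sensors, fell by 0.89 ± 0.14 (adjusted p = 0.000101). Irf7, an interferon-inducible factor that drives alpha-interferon genes, rose from 23.0 ± 3.88 to 47.6 ± 7.20 CPM (1.05 ± 0.15, adjusted p = 3.78e-05). Irf8 rose by 0.53 ± 0.13 (adjusted p = 0.00291), and Irf5 by 1.69 ± 0.49 (adjusted p = 0.00851) from 0.658 CPM. Irf4 had 0 counts.

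Of 11 genes that restrain JAK-STAT signaling, 8 rose, 1 fell and 2 were not called, where 29.5% of all tested genes rose and 30.1% fell. Usp18, a protease that binds IFNAR2 and blocks its signaling, had 1.24, 0.560 and 2.02 CPM after PBS and 47.5, 56.9, 49.2 and 46.3 CPM after TNF (log2 fold change 5.30 ± 0.27, edgeR adjusted p = 5.77e-09). Socs3, which restrains gp130 receptors, rose from 17.4 ± 8.32 to 359 ± 62.6 CPM (4.37 ± 0.31, adjusted p = 1.91e-06). Socs1, an inhibitor of JAK kinases at interferon receptors, rose from 1.74 CPM, the mean of the PBS libraries, to 12.6 to 16.4 CPM (3.02 ± 0.22, adjusted p = 6.52e-08). These were the 3 largest rises of the list, and their TNF libraries lay far above all PBS libraries. Cish rose by 1.39 ± 0.22, and the phosphatase genes Ptpn2 and Ptpn1 rose by 0.98 ± 0.13 and 0.60 ± 0.10 (edgeR adjusted p at most 0.000126). Ptpn6, which encodes the phosphatase SHP-1, fell by 1.23 ± 0.33 (adjusted p = 0.0126), a call lost without the filter on low counts (adjusted p = 0.0641). Of the PIAS genes, Pias3 (0.44 ± 0.15, adjusted p = 0.0208) and Pias2 (0.28 ± 0.11, adjusted p = 0.0469) were called higher, and Pias1 (-0.10 ± 0.13) and Pias4 (0.00 ± 0.12) were not. Pias2 was no longer called when PBS replicate 1 (0.23) or 3 (0.25), or TNF replicate 1 (0.29), 3 (0.27) or 4 (0.22) was left out, nor Pias3 without PBS replicate 2 (0.41), TNF replicate 2 (0.34) or TNF replicate 4 (0.41). Pias2 also lost its call with DESeq2 size factors (adjusted p = 0.0548), with no count filter (0.0893) and in the DESeq2 test (0.0989). With total-count scaling, neither Pias2 (0.11, adjusted p = 0.587) nor Pias3 (0.26, adjusted p = 0.216) was called.

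Genes for the turnover of IFNAR1 were also examined. Its 2 related ubiquitin ligase subunits moved in opposite directions, as Fbxw11 rose by 1.06 ± 0.11 (edgeR adjusted p = 1.8e-06) and Btrc fell (-0.90 ± 0.14, adjusted p = 0.000106). Prkd2, a kinase that promotes this turnover, was called higher (0.42 ± 0.14, adjusted p = 0.0192), but not with total-count scaling (0.27, adjusted p = 0.292), without PBS replicate 1 (0.38) or without PBS replicate 3 (0.40). Over ligands, partner chains, kinases, other STATs and IRFs, inhibitors and turnover genes together, 18 of 29 tested genes rose and 5 fell. Their median log2 fold change was 0.44. Among all 14329 tested genes, 29.5% rose and 30.1% fell.

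**Figure D5:**
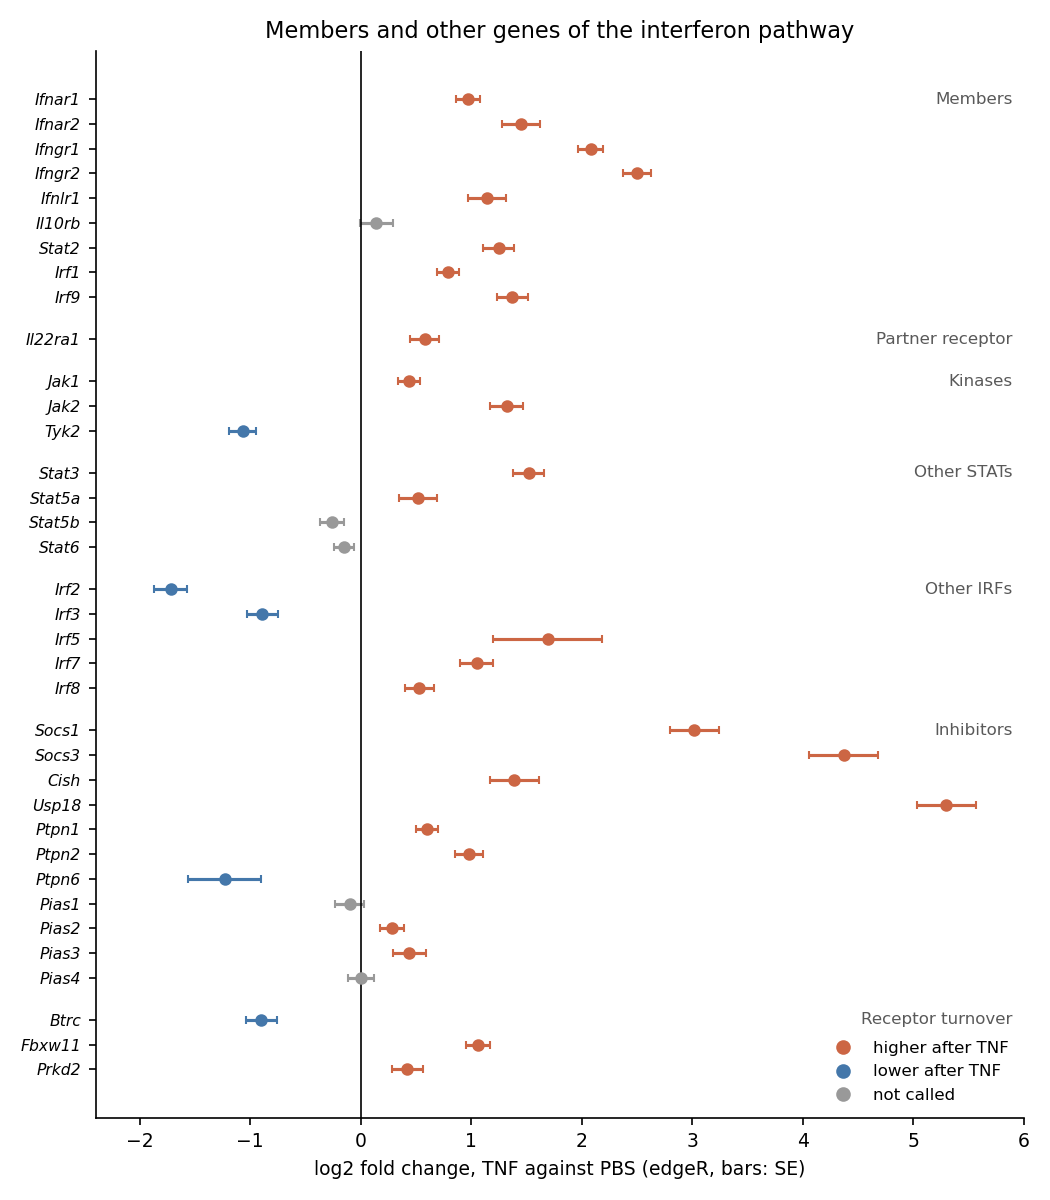
Log2 fold change (TNF against PBS, bars show SE) of the 9 genes and of other tested genes of the pathway, colored by the edgeR call. Usp18 (5.30) and Socs3 (4.37) lie farthest to the right, and Irf2 (-1.72), Ptpn6 (-1.23) and Tyk2 (-1.07) farthest to the left.

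Known target genes of these factors were read out last. Of 16 genes induced through ISGF3, 15 rose, beside 29.5% of all tested genes, with a median log2 fold change of 2.30. The 4 described first had the largest changes of this list. Rsad2, an antiviral enzyme, rose from 0.752 ± 0.262 (SD, n = 3) to 19.9 ± 6.12 CPM (SD, n = 4), the antiviral gene Mx2 from 0.487 ± 0.268 to 12.9 ± 4.22 CPM and Ifit1 from 0.875 ± 0.329 to 16.5 ± 4.57 CPM (edgeR adjusted p at most 2.11e-07). Mx1, an antiviral GTPase gene, had 0, 1 and 0 counts after PBS and 117, 62, 20 and 24 counts after TNF. The TNF libraries thus differed widely, and the ratio per TMM-corrected library size was 177.3 (95% exact binomial interval 31.5 to 7033, counting error only). This ratio was 113.8 without TNF replicate 1 and 116.1 without PBS replicate 3, and it cannot be formed without PBS replicate 2. Oas2 was not called (0.53 ± 0.26, adjusted p = 0.0937), except without PBS replicate 2 (0.74, adjusted p = 0.0494). The calls of Ifit3 and Bst2 were lost with total-count scaling (adjusted p = 0.0534 and 0.0685) and without PBS replicate 3, and also without PBS replicate 1 or the filter on low counts (adjusted p = 0.0546) for Ifit3 and without PBS replicate 2 or TNF replicate 3 or 4 for Bst2.

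Of 12 genes induced through IRF1, 10 rose and none fell (median log2 fold change 2.02). The GTPase genes Gbp2 and Gbp3 rose from 1.14 ± 0.438 to 125.7 ± 60.2 CPM and from 1.38 ± 0.665 to 30.8 ± 7.47 CPM, and the chemokine gene Cxcl9 rose from 0.228 ± 0.312 to 11.5 ± 6.10 CPM (edgeR adjusted p at most 0.000174). The chemokine gene Cxcl10 had 0, 0 and 1 counts after PBS and 29, 98, 77 and 114 counts after TNF. Its ratio per TMM-corrected library size was 252.8 (95% exact binomial interval 45.0 to 10020, counting error only). This ratio was 162.0 without PBS replicate 2 and cannot be formed without PBS replicate 3. Ciita, the master regulator of MHC class II (-0.50 ± 0.34, adjusted p = 0.222), and Il15 (-0.60 ± 0.43, adjusted p = 0.242) were not called, and Ciita was 0.07 without PBS replicate 3. The call of Cd274 was lost without PBS replicate 1 (1.09), without TNF replicate 2 (0.83) and with total-count scaling (0.97). Many of these genes also respond directly to NF-kB.

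The genes whose centered log2 CPM lay nearest to each factor over the 7 libraries were also named, among 8436 genes at or above 10 CPM on average. They were Ssh3, Soat2 and Aifm2 for Stat2 (root mean square difference 0.089 to 0.099), Frmd4b, Tinf2 and Zmynd19 for Irf1 (0.044 to 0.054), and Trafd1, Ric8a and Soat2 for Irf9 (0.087 to 0.098). The difference between the groups makes up most of this likeness, so it describes a shared size of change in the same libraries.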

How the data were processed

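Bulk RNA-seq of PCs from 3 PBS and 4 TNF mice was used. The authors deposited raw counts, whole numbers per Ensembl gene and library. The submitters' processing notes name FastQC, Trimmomatic 0.39, STAR 2.7.10a, DESeq2 and the builds mm10 and mm39. The sources used here do not give the counter, annotation or strand use. Symbols, GRCm39 coordinates and exon lengths came from GENCODE M39 by identifier, which can differ from the annotation used for counting. Promoters came from RefSeq on GRCm38.p6.

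TNF was compared with PBS by edgeR 4.0.16 in R 4.3.3 (quasi-likelihood F-test, robust, two-sided) on all genes left by filterByExpr, with TMM scaling, no covariates and Benjamini-Hochberg adjustment over all 14329 genes. The test was checked on simulated data. SEs were taken from the F statistic. Ratios of counts used 0.5 added to each count. Alternatives were DESeq2 1.42.0 (its test, and its size factors in edgeR), total-count scaling, scaling without alpha-defensins and Lyz1, other filters, a 2-fold limit, the replicate number as a block, and leaving out each library (for the Mx1 and Cxcl10 ratios, added after seeing the data).

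The members and lists were chosen with earlier results of these data known. Named were all 9 members, pathway genes averaging 1 CPM or more, ligands with a count, up to 4 targets per list with the largest changes, the 3 genes most like each factor, and neighbors of the receptor cluster. Values of some list genes are not reported here, though counts over lists include them.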

Additional observations from a re-analysis of the deposited data

Results flagged for a closer look

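Dixon's ratio, the gap between an extreme library and its nearest neighbor over the spread from lowest to highest, was computed in the TNF libraries and set against its 95% limit for 4 values. Of 43 values examined (CPM of the 9 genes and of pathway genes, and 5 ratios), 2 passed, and chance gives about 1 in 20. For Ifnar2 the ratio was 0.869, because TNF replicate 1 had 15.8 CPM and the other TNF libraries had 15.2 to 15.3 CPM. For Ifngr1 it was 0.87, because TNF replicate 2 had 179.9 CPM and the others 205 to 208 CPM. Without TNF replicate 1, and without TNF replicate 2, all 8 calls among the members were still made.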

How the results depend on the processing

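In each of 15 fits 8 members were called higher and none lower, and a 2-fold requirement left 6 (without Ifnar1 and Irf1). Over these fits, log2 fold changes ran from 0.80 to 1.02 for Ifnar1, 1.30 to 1.53 for Ifnar2, 1.93 to 2.13 for Ifngr1, 2.32 to 2.59 for Ifngr2, 1.00 to 1.28 for Ifnlr1, 1.10 to 1.31 for Stat2, 0.63 to 0.85 for Irf1 and 1.20 to 1.43 for Irf9, with an adjusted p of at most 0.00243. Il10rb changed sign with total-count scaling (-0.02) and ran from -0.03 (without PBS replicate 3) to 0.24 (without PBS replicate 2) when 1 library was left out, and was not called in any of the 15 fits. Under total-count scaling the median of all genes was -0.16 in place of 0.0017, with 3142 genes called higher and 4614 lower (40.5% of calls higher, 49.5% under TMM). Other pathway genes called higher numbered 14 to 18 over the fits, and those called lower 4 to 7. With a 2-fold limit they numbered 9 and 3, since small changes no longer count.

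Libraries with the same replicate number did not deviate together from their group means (correlations of -0.299, -0.031 and -0.174 across genes for numbers 1 to 3), so the numbers were not taken as pairs. With the replicate number as a block, the members called higher were 8, and pathway genes called higher 16 and lower 5. Pias2 (adjusted p = 0.194), Pias3 (0.0879), Ifit3 (0.0735) and Bst2 (0.118) lost their edgeR calls there. As paired values, the ratios differed by -0.523 (Ifnar1 to Ifnar2), -0.376 (Ifngr1 to Ifngr2), 1.09 (Ifnlr1 to Il10rb), 0.125 (Irf9 to Stat2) and 2.45 (Irf1 to Irf2). With a library left out, the differences ran from -0.605 to -0.347, -0.524 to -0.34, 0.804 to 1.12, 0.007 to 0.258 and 2.40 to 2.66 in the same order, and an exact permutation test of 6 libraries cannot reach 0.05.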
